A study of Mus musculus with 15 samples.

Results

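Genes for the subunits of the mitochondrial oxidative phosphorylation complexes were followed in uteri of ovariectomized CD-1 mice given an oestrogen. Members were the genes on the array whose names in the files begin with Nduf and then a, b, c, s or v, with Uqcr, with Cox4 to Cox8 or with Atp5, together with Sdha, Sdhb, Sdhc and Sdhd. The rule used names only and gave 82 of the 27645 gene rows of the array. By name, 36 of them encode subunits of complex I, 4 of complex II, 7 of complex III, 16 of complex IV and 15 of complex V. The remaining 4 match the names without being subunits. They are Ndufaf1, an assembly factor of complex I, Cox7a2l, which joins complexes III and IV into supercomplexes, Atp5s (now Dmac2l) and Cox4nb (now Emc8), a member of an endoplasmic reticulum complex. Ndufa4 was counted with complex I by its name, although its protein is now placed in complex IV. Of the 82 genes, 81 met the condition for testing, a signal well above background on each of the 3 arrays of some group. Cox8c, a testis isoform of a complex IV subunit, was well above background on 1 of 3 arrays in E2 24 h uteri and on 0 of 3 in each other group, and was not tested.

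The 15 one-colour arrays formed 5 groups of 3: uteri taken 24 h after 250 ng of E2, 24 h after 250 ng of E3, 2 h after E2, 2 h after E3, and uteri of mice given vehicle, which was 100 µl of saline. Every group was ovariectomized, so the ovarian supply of oestrogen had been removed in the vehicle group too. E2 and E3 are read by their usual meaning as oestradiol and oestriol, oestriol having a further hydroxyl on its D ring. The age of the mice, the time at which vehicle uteri were taken and whether replicates are separate animals are not given in the sources used here, so p-values reflect only how much these samples varied, perhaps for technical reasons. Arrays differed in the 75th percentile of their signal, which was 996.7 to 1737, and 63.7% to 80.3% of spots were well above background. Precision throughout is that of 3 arrays a group. Pearson's r over all genes tested was 0.962 to 0.974 between the E3 24 h arrays and at least 0.9865 within each other group. The median SD of a member between arrays was 0.14 in E3 24 h uteri and between 0.08 and 0.17 in the other groups, on the log2 scale. The 3 vehicle arrays shared a slide that held no other group, so the slide and the vehicle treatment cannot be told apart.

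Oxidative phosphorylation makes most of the ATP of an aerobic cell. Complexes I and II pass electrons from NADH and succinate to ubiquinone, complex III passes them to cytochrome c, and complex IV passes them to oxygen. Complexes I, III and IV pump protons across the inner mitochondrial membrane, and complex V, the ATP synthase, lets them flow back to make ATP. Most subunits are encoded in the nucleus, and a few in the mitochondrial genome. In the uterus of an ovariectomized rodent, oestrogen is known to bring an early phase of fluid uptake and transcription and a later phase of growth with proliferation of the epithelium.

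At 24 h after E2, genes of every complex rose above their level in vehicle uteri. Of the 81 members, 73 rose and 1 fell in limma at an adjusted p under 0.05 (Benjamini-Hochberg, over the 20303 genes tested). Over all genes tested, 20.9% were called higher and 22.4% lower in this comparison (43.4% in either direction). The median log2 difference was 0.90 over the members and -0.02 over all genes tested. The rise covered 35 of 36 genes of complex I, 3 of 4 of complex II, 7 of 7 of complex III, 11 of 15 of complex IV and 15 of 15 of complex V, with medians of 0.88, 0.94, 0.77, 0.85 and 0.96 on the log2 scale. The 15 complex IV genes include the muscle, lung or testis forms Cox4i2, Cox6a2, Cox6b2, Cox7a1 and Cox8b. The median SE was 0.17 in complex IV and 0.12 in complexes I and V. Of the members called, 67 differed by at least 1.5-fold, beside 6556 of the 20303 genes tested. All 3 E2 24 h arrays lay above all 3 vehicle arrays for 73 members and below them for 2, beside 27% and 29.1% of all genes tested. In bulk tissue, more cells of a type and more RNA per cell cannot be told apart.

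At 24 h after E3, 61 of the 81 members rose and 0 fell, beside 9.6% of all genes tested called higher and 10.7% called lower (20.3% in either direction). The median difference was 0.54 over the members and -0.0038 over all genes tested. By complex, 28 of 36, 3 of 4, 5 of 7, 10 of 15 and 14 of 15 genes rose in complexes I to V, with medians of 0.51, 0.44, 0.61, 0.66 and 0.57. Of the members called, 31 differed by at least 1.5-fold, beside 2771 of the 20303 genes tested. For 70 members all 3 E3 24 h arrays lay above all 3 vehicle arrays and for 0 below them, beside 16.9% and 19.1% of all genes tested. Both 24 h comparisons use the same 3 vehicle arrays. Quantile normalization lowered the member median to 0.54 after E2, with 60 genes higher and 2 lower, and to 0.20 after E3, with 25 genes higher and 0 lower. For E3, 36 members were called without vehicle replicate 1, 33 without vehicle replicate 2, and 0 when only the E3 24 h and vehicle arrays were fitted, where 10 genes in all were called and 66 members had an unadjusted p under 0.05. On the arrays of scan day 1 alone, 72 members were called after E2 and 40 after E3, with medians of 0.88 and 0.54. The counts of all genes called under these settings are mostly not given here. A changed member count is therefore not read as particular to the members.

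**Figure D1:**
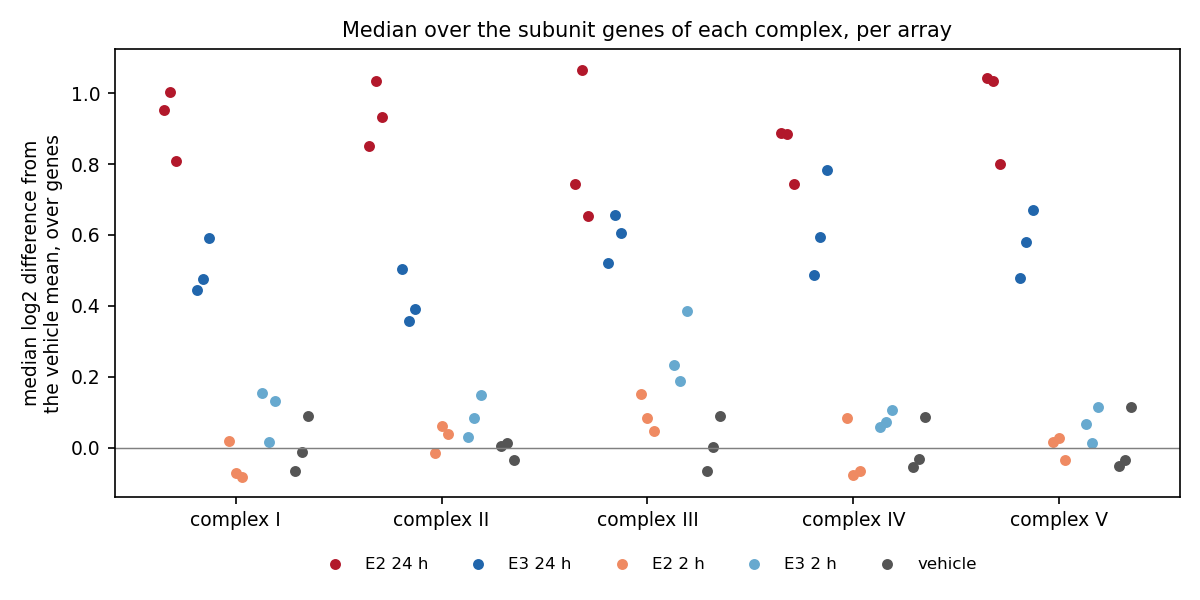
Each point is 1 array and gives the median, over the subunit genes of a complex, of the log2 difference from the mean of the vehicle arrays. In complex I the E2 24 h arrays lay at 0.81 to 1.00 and the E3 24 h arrays at 0.45 to 0.59, while the 2 h arrays lay between -0.08 and 0.15 and the vehicle arrays between -0.07 and 0.09.

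**Figure D2:**
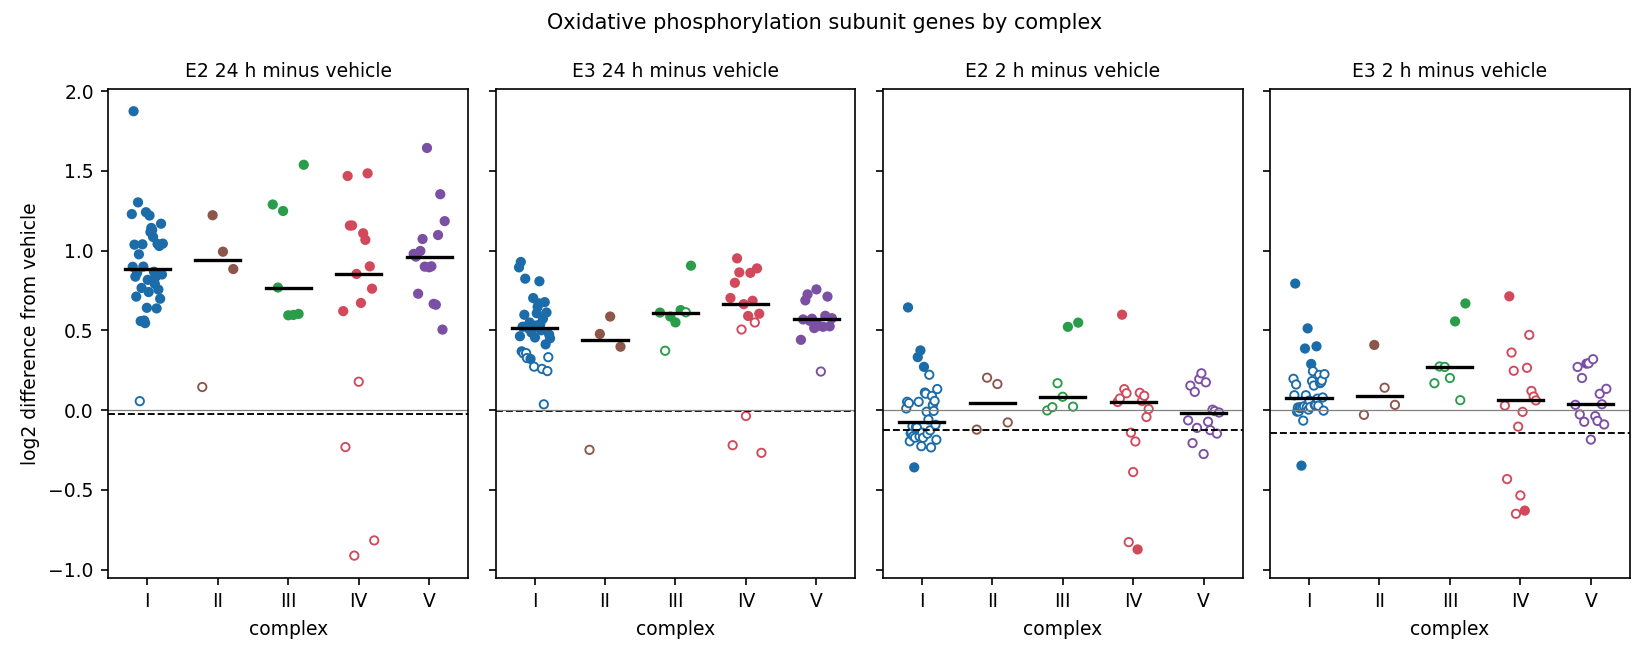
Each point is a subunit gene and gives its log2 difference from vehicle in the comparison named above the panel. Filled points passed the adjusted p of 0.05, black bars are medians of a complex, and the dashed line is the median of all genes tested. The complex medians lay between 0.77 and 0.96 for E2 24 h and between 0.44 and 0.66 for E3 24 h.

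Complex I takes electrons from NADH. Its largest rise was that of Ndufa11, an accessory subunit of the membrane arm. Ndufa11 had scaled log2 signals (log2 signal minus the 75th percentile of its array) of 1.86, 2.59 and 2.17 in E2 24 h uteri and 1.29, 1.14 and 1.35 in E3 24 h uteri, against 0.30, 0.20 and 0.50 in vehicle uteri. The 3 groups did not overlap. The difference from vehicle was 1.87 after E2 (SE 0.17, 3.67-fold, adjusted p = 1.84e-05 by limma) and 0.93 after E3 (1.90-fold, adjusted p = 0.00676). Its 2 probes, at chr17:54928975-54929034 and chr17:54928965-54929024 of mm7, cover nearly the same bases, and the probe not used gave 1.85 and 0.86.

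Ndufs8 carries iron-sulphur clusters of the matrix arm of complex I. It had 2.08, 2.56 and 2.07 in E2 24 h uteri and 1.35, 1.41 and 1.43 in E3 24 h uteri, against 1.06, 1.06 and 1.08 in vehicle uteri. The E2 difference was 1.17 (SE 0.12, 2.25-fold, adjusted p = 3.65e-05), while the E3 difference of 0.33 did not pass (adjusted p = 0.0743). Ndufs1, the largest subunit of the complex, rose by 0.79 after E2 (adjusted p = 6.64e-05), and its value after E3 was 0.26 (adjusted p = 0.0658). Ndufv1, which holds the flavin that accepts the electrons of NADH, rose by 0.85 after E2 and by 0.47 after E3 (adjusted p = 0.000316 and 0.0254). Ndufab1, the mitochondrial acyl carrier protein that is also a subunit, rose by 0.90 and 0.32 (adjusted p = 4.57e-05 and 0.0404). Ndufa4 had 5.55, 5.51 and 5.37 in E2 24 h uteri and 4.98, 5.01 and 5.01 in E3 24 h uteri, against 4.16, 4.13 and 4.23 in vehicle uteri. It rose by 1.30 and 0.82 with no overlap (adjusted p = 3.67e-06 and 0.00101).

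Ndufa6, an accessory subunit of the matrix arm, was the 1 complex I gene that did not pass after E2 at 24 h. It had 3.81, 3.80 and 3.89 in E2 24 h uteri and 3.94, 4.35 and 4.01 in E3 24 h uteri, against 3.88, 3.81 and 3.64 in vehicle uteri. The E2 and vehicle arrays overlapped, and the 24 h differences were 0.06 after E2 and 0.33 after E3 (adjusted p = 0.721 and 0.0648). The other complex I genes rose after E2 by between 0.55 (Ndufb11, of the membrane arm) and the 1.87 of Ndufa11. After E3 the 8 that did not pass had values between 0.04 and 0.36, the lowest being that of Ndufs3, a core subunit of the matrix arm, which rose by 0.64 after E2 (adjusted p = 0.0124).

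Complex II is the succinate dehydrogenase that the respiratory chain shares with the tricarboxylic acid cycle. Sdhb, its iron-sulphur subunit, had 3.69, 3.79 and 3.46 in E2 24 h uteri and 2.96, 2.73 and 3.01 in E3 24 h uteri, against 2.49, 2.36 and 2.42 in vehicle uteri. It rose by 1.22 after E2 (2.33-fold, adjusted p = 2.89e-05) and by 0.48 after E3 (adjusted p = 0.0209). Sdhc and Sdhd, which anchor the enzyme in the membrane, rose by 0.99 and 0.88 after E2 (adjusted p = 4.19e-05 and 2.22e-05) and by 0.59 and 0.40 after E3 (adjusted p = 0.00666 and 0.0106). Sdha, the flavoprotein subunit that oxidizes succinate, had 2.03, 1.90 and 2.32 in E2 24 h uteri and 1.93, 1.63 and 1.5 in E3 24 h uteri, against 1.93, 2.05 and 1.83 in vehicle uteri. These groups overlapped, and the differences of 0.14 (95% interval -0.15 to 0.44) and -0.25 (-0.54 to 0.04) did not pass, with adjusted p of 0.407 and 0.204. With the array median as the scale, the E2 value of Sdha was 0.37 and passed. The other probe matched to Sdha gave 0.33 after E2 and -0.09 after E3.

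Complex III oxidizes ubiquinol. Uqcrq, a small subunit bound near cytochrome b, had 6.38, 6.43 and 6.08 in E2 24 h uteri and 5.46, 5.59 and 5.94 in E3 24 h uteri, against 4.67, 4.76 and 4.85 in vehicle uteri. It rose by 1.54 after E2 and by 0.91 after E3 (2.91-fold and 1.87-fold, adjusted p = 1.23e-05 and 0.00313), while its other probe had -0.18 and -0.63. Uqcrc1, a core subunit, rose by 1.25 and 0.59 (adjusted p = 5.73e-05 and 0.0168). Uqcrb, which binds ubiquinone, rose by 0.77 after E2 (adjusted p = 0.000726), and its value of 0.37 after E3 did not pass (adjusted p = 0.0653). Uqcrfs1, the Rieske iron-sulphur protein that hands electrons to cytochrome c1, followed another course. It had 4.07, 4.04 and 3.95 in E2 24 h uteri, 4.0, 4.12 and 4.03 in E3 24 h uteri, 3.95, 3.98 and 3.90 in E2 2 h uteri and 3.98, 3.97 and 3.98 in E3 2 h uteri, against 3.36, 3.43 and 3.48 in vehicle uteri. All 12 treated arrays lay above all 3 vehicle arrays. The 4 differences from vehicle were 0.60, 0.63, 0.52 and 0.56 in that order of groups (adjusted p = 0.000191, 0.00239, 0.000371 and 0.000224), and the change between 2 h and 24 h was 0.07 after either oestrogen (adjusted p = 0.477 for E2 and 0.498 for E3).

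**Figure D3:**
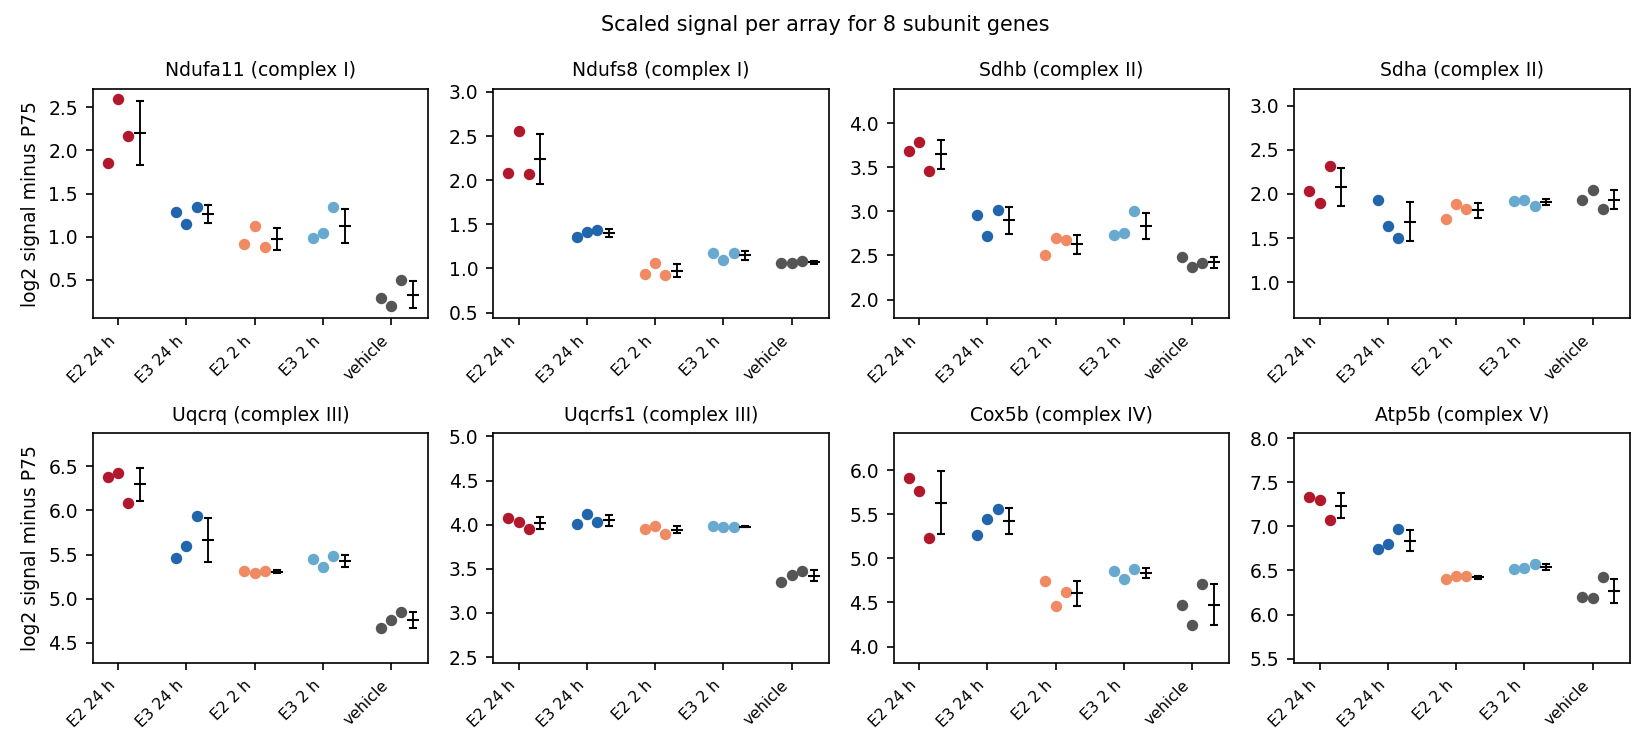
Points are single arrays and give the log2 signal minus the 75th percentile (P75) of the array, with the group mean and SD (n = 3) as a bar to the right of each group. Axes differ between genes. Ndufs8 separates E2 24 h from the other groups, Uqcrfs1 lies near 4.0 in every treated group, and the groups of Sdha overlap.

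Complex IV reduces oxygen. After E2 at 24 h the largest rises were those of Cox7b and Cox5a, both subunits from the nuclear genome. Cox5a had 5.61, 5.52 and 5.66 in E2 24 h uteri and 4.55, 5.34 and 4.89 in E3 24 h uteri, against 3.99, 4.05 and 4.34 in vehicle uteri. It rose by 1.47 after E2 and by 0.80 after E3 (adjusted p = 6.29e-05 and 0.0108), while its other probe had -0.94 and -0.82. Cox7b had 5.32, 4.48 and 4.99 in E2 24 h uteri and 3.87, 4.0 and 4.11 in E3 24 h uteri, against 3.14, 3.84 and 3.35 in vehicle uteri. It rose by 1.49 after E2 (SE 0.30, adjusted p = 0.00203), and its value of 0.55 after E3 did not pass (adjusted p = 0.213). Cox5b, which binds zinc, had 5.91, 5.76 and 5.23 in E2 24 h uteri and 5.27, 5.45 and 5.56 in E3 24 h uteri, against 4.47, 4.25 and 4.71 in vehicle uteri. Its difference of 0.95 was the largest of any member after E3 (adjusted p = 0.00663), beside 1.16 after E2 (adjusted p = 0.000303).

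Several complex IV subunits exist as isoform pairs, a form found in most tissues and a form of muscle, lung or testis. The forms of most tissues rose after both oestrogens at 24 h. Cox4i1 rose by 0.62 after E2 and 0.70 after E3, Cox6a1 by 1.16 and 0.86, Cox7a2 by 1.07 and 0.69, and Cox8a by 0.76 and 0.60, with adjusted p between 3.78e-05 and 0.015. With quantile normalization the values of Cox4i1 were 0.17 and 0.23 and did not pass. Among the muscle forms, Cox6a2 had -5.01, -4.73 and -4.60 in E2 24 h uteri and -4.27, -3.32 and -2.49 in E3 24 h uteri, against -3.57, -3.59 and -4.43 in vehicle uteri. Its E2 24 h arrays lay below its vehicle arrays. Cox8b had -2.26, -1.98 and -1.70 in E2 24 h uteri and -0.58, -2.51 and -1.20 in E3 24 h uteri, against -1.14, -0.61 and -1.74 in vehicle uteri. Neither gene passed in any comparison, and the interval of Cox6a2 after E2 ran from -2.08 to 0.25. Cox4i2, the lung form of subunit 4, was well above background on 1 of 3 arrays in E2 24 h uteri and 2 of 3 in E3 24 h and vehicle uteri, and did not pass in any comparison. Cox7a1, the heart and skeletal muscle form of subunit 7a, passed in every comparison with vehicle. It had -0.15, -0.17 and -0.29 in E2 24 h uteri, -0.40, -0.65 and -0.31 in E3 24 h uteri, -1.85, -2.39 and -2.32 in E2 2 h uteri and -1.98, -2.07 and -1.78 in E3 2 h uteri, against -1.39, -1.41 and -1.14 in vehicle uteri. All 24 h arrays lay above the vehicle arrays and all 2 h arrays lay below them. The differences from vehicle were 1.11 and 0.86 at 24 h (adjusted p = 0.000194 and 0.00636) and -0.87 and -0.63 at 2 h (adjusted p = 0.000789 and 0.00635), for E2 and E3. Cox7a1 also had the largest 24 h minus 2 h difference of any member, 1.98 for E2 and 1.49 for E3 (3.95-fold and 2.81-fold, adjusted p = 1.44e-06 and 1.38e-05).

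**Figure D4:**
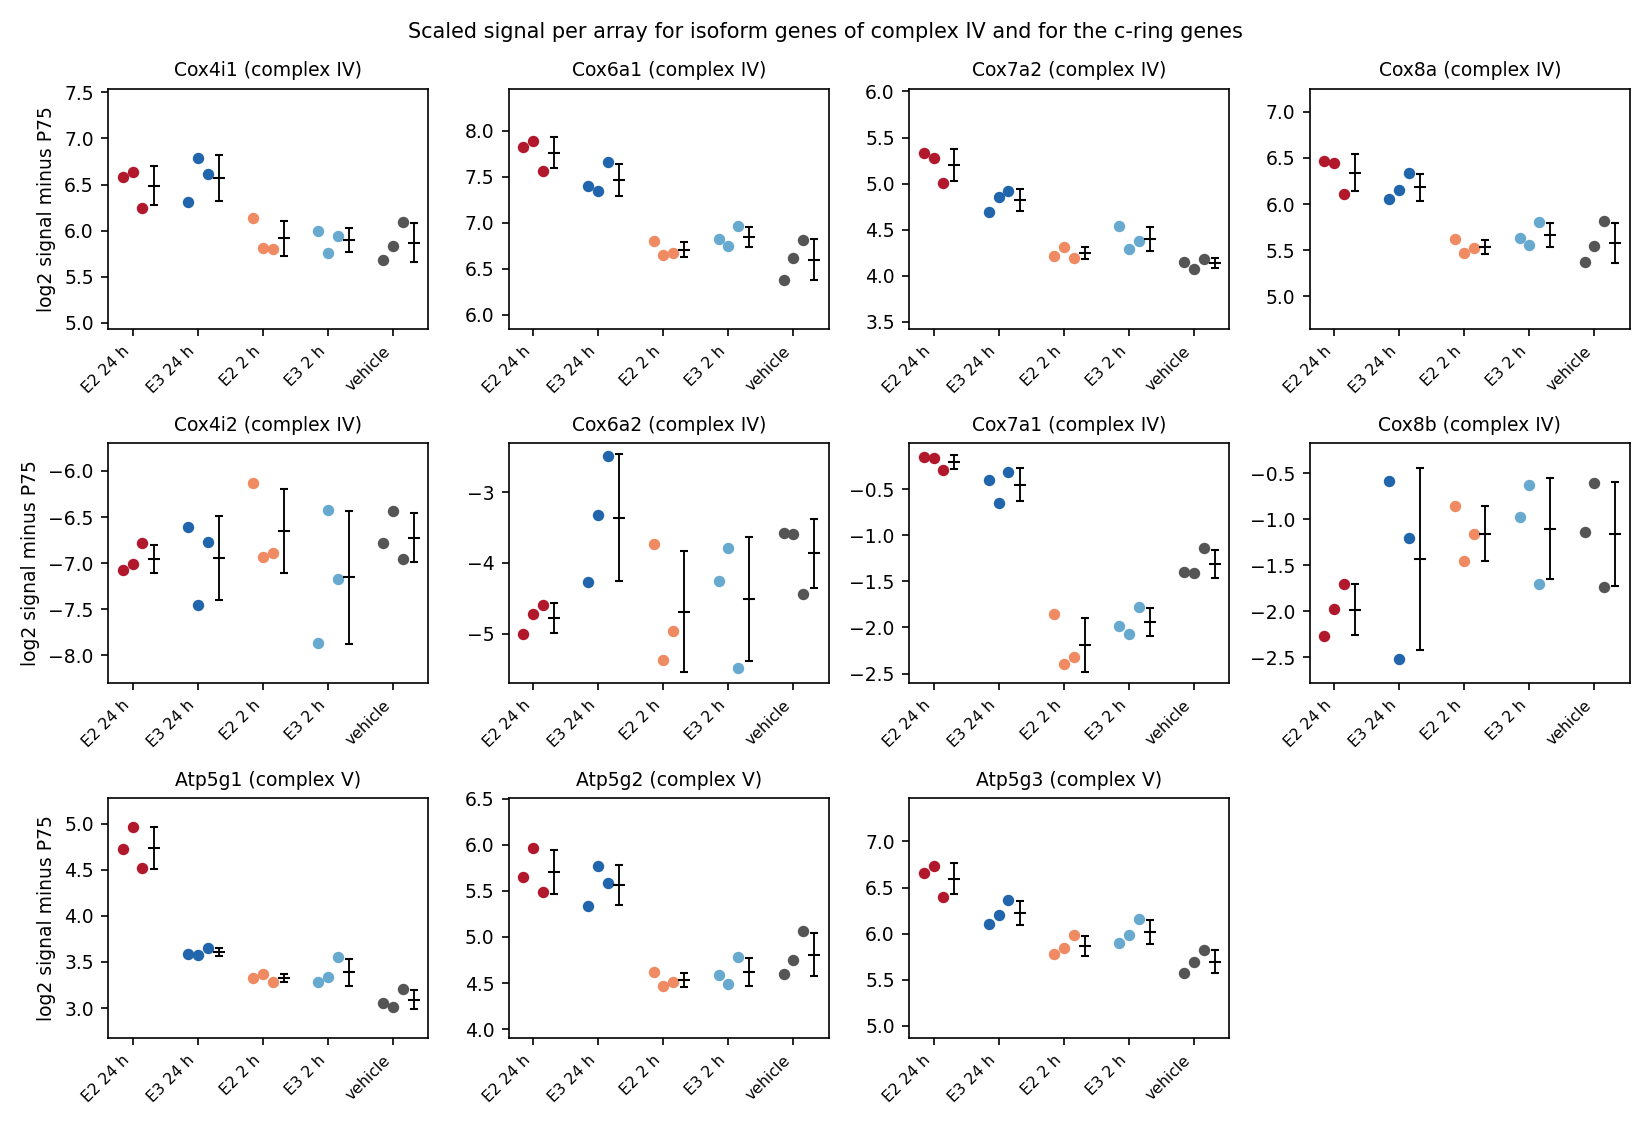
Points are single arrays and give the log2 signal minus the P75 of the array, with the group mean and SD (n = 3) as a bar. The upper row shows forms of complex IV subunits found in most tissues, the middle row the lung (Cox4i2) and muscle forms, and the lower row the c-ring genes of complex V. Atp5g1 lies at 4.52 to 4.97 in E2 24 h uteri and at 3.58 to 3.65 in E3 24 h uteri, while Atp5g2 overlaps between these groups.

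Complex V consists of a catalytic head, a membrane ring of c subunits and stalks that join them. Atp5a1 and Atp5b, the alpha and beta subunits of the head, rose by 0.98 and 0.96 after E2 (adjusted p = 1.79e-05 and 4.48e-05) and by 0.44 and 0.57 after E3 (adjusted p = 0.00898 and 0.00676). With quantile normalization the E3 value of Atp5a1 was -0.01. Atp5k, the e subunit, rose by 1.35 and 0.71 (adjusted p = 2.18e-05 and 0.00638). Atp5g1, Atp5g2 and Atp5g3 encode the same mature c subunit with different import sequences. Atp5g1 had 4.73, 4.97 and 4.52 in E2 24 h uteri and 3.59, 3.58 and 3.65 in E3 24 h uteri, against 3.06, 3.01 and 3.21 in vehicle uteri. It rose by 1.64 after E2 (SE 0.12, 3.13-fold, adjusted p = 5.29e-06) and by 0.51 after E3 (1.43-fold, adjusted p = 0.0150). Atp5g2 had 5.65, 5.96 and 5.49 in E2 24 h uteri and 5.33, 5.77 and 5.59 in E3 24 h uteri, against 4.60, 4.75 and 5.06 in vehicle uteri. It rose by 0.90 and 0.76 (adjusted p = 0.000935 and 0.0108), and Atp5g3 rose by 0.90 and 0.53 (adjusted p = 0.000178 and 0.0148). All 15 genes of complex V rose after E2, by between 0.51 (Atp5l, the g subunit) and 1.64. After E3 the 1 that did not pass was Atp5h, the d subunit of the stalk, with 0.24 (adjusted p = 0.0954), beside 0.67 after E2 (adjusted p = 0.00026).

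The E2 and E3 arrays did not overlap for Atp5g1 and overlapped for Atp5g2, and their products are alike, so their probe sequences are shown. Both are from the array files and 60 bases long, and capitals mark the longest run of bases that they share, which is 14 bases. The Atp5g1 probe lies at chr11:96182649-96182708 and the Atp5g2 probe at chr15:102651312-102651371, both on the minus strand of mm7. No annotation of that build was used, so exons are not given.
Atp5g1 probe: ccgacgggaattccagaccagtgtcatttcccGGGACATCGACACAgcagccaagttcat
Atp5g2 probe: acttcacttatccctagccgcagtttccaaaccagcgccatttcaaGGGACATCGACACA
This Atp5g2 probe was not the one used above. It gave 0.89 after E2 and 0.83 after E3, beside 0.90 and 0.76 with the probe used.

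The regions before the transcription starts of 6 members are shown. Ndufa11 had the largest rise, Uqcrfs1 the early and lasting rise, and Atp5g1 and Atp5g2 the contrast within the c-ring family. Cox6a1 and Atp5k rose at 24 h, as most members did. All regions shown hold a match, and those of Atp5b, Sdhb, Ndufs8 and Cox5a, which hold none, are not shown. NRF1, ETS or YY1 letters stood in 19 of the 64 subunit genes with a window, so the regions shown do not represent the members. Each region shown is the run of 250 bases before the start, from RefSeq on GRCm38.p6, written along the strand of the gene. Capitals mark matches to motifs that were searched on both strands. The motifs were GCGCATGCG for nuclear respiratory factor 1 (NRF1), CCGGAAGT for ETS factors such as GABPA, AAGATGGCG for YY1, TGACGTCA for the cyclic AMP response element, TCAAGGTCA for the oestrogen-related receptors, CACGTG for the E-box, and the oestrogen response element, GGTCA and TGACC with 3 bases between them. The NRF1 letters overlap themselves on the opposite strand, and GGTCA is also held by the oestrogen-related receptor motif. The regions lie at chr17:56717512-56717761 (plus strand) for Ndufa11, chr13:30545317-30545566 (minus) for Uqcrfs1, chr5:115348959-115349208 (minus) for Cox6a1, chr5:108434400-108434649 (minus) for Atp5k, chr11:96075632-96075881 (minus) for Atp5g1 and chr15:102671048-102671297 (minus) for Atp5g2.
Ndufa11: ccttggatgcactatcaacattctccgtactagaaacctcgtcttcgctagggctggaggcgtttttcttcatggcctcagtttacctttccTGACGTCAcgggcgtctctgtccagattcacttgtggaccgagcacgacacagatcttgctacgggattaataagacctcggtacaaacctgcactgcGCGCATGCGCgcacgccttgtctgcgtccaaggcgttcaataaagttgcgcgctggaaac
Uqcrfs1: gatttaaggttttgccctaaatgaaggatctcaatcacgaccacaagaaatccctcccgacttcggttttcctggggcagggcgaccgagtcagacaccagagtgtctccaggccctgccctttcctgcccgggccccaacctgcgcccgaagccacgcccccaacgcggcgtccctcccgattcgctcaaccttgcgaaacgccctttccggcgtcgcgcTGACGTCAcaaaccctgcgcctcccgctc
Cox6a1: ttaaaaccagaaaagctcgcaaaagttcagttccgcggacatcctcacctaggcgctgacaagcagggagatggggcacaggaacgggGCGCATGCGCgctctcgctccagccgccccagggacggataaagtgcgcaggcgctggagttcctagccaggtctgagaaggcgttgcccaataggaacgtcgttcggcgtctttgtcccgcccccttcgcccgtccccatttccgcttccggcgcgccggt
Atp5k: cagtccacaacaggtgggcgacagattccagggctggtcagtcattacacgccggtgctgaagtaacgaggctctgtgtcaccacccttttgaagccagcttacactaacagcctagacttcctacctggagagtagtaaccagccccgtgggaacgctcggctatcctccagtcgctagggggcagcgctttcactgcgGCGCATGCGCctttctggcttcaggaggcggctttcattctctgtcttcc
Atp5g1: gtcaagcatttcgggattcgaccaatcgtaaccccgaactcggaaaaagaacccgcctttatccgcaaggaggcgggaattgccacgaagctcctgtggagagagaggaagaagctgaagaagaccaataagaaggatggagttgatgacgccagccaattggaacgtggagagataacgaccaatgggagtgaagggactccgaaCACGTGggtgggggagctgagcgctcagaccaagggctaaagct
Atp5g2: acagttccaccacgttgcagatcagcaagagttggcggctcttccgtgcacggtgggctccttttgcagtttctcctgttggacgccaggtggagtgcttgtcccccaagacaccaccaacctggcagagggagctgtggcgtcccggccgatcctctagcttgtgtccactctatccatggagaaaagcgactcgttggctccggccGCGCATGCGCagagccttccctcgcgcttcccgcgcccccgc
Ndufa11 held a cyclic AMP response element whose match begins at -158 from the start and an NRF1 match at -60. Uqcrfs1 held a cyclic AMP response element at -29, and the NRF1 matches of Cox6a1, Atp5k and Atp5g2 began at -162, -50 and -42. Atp5g1 held an E-box at -44.

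RefSeq windows of 300 bases, 250 before and 50 after the start, were matched for 64 of the 78 subunit genes and 27025 genes in all. NRF1 letters stood in 12.5% of the subunit genes and 1.95% of all genes with a window. YY1 letters stood in 10.9% and 1.64%, ETS letters in 7.81% and 4.31%, cyclic AMP response element letters in 6.25% and 2.03%, oestrogen-related receptor letters in 3.12% and 0.47%, and E-box letters in 9.38% and 8.09%. The spelled oestrogen response element stood in 0 of the 64 subunit genes and in 0.07% of all genes. The 8 genes with NRF1 letters were Ndufa8, Ndufa11, Uqcrc1, Uqcr, Cox6a1, Atp5g2, Atp5k and Atp5l. A match describes letters in a window and is not evidence that a factor bound there.

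At 2 h few members had changed. After E2, 8 of 81 rose and 3 fell, beside 16.3% of all genes tested called higher and 22.2% called lower (38.5% in either direction), and the member median was -0.0019. After E3, 12 rose and 3 fell, beside 16.9% and 23% (39.9%), and the member median was 0.085. The treated arrays lay above all vehicle arrays for 15 members and below for 12 after E2, beside 22.5% and 32.5% of all genes tested, and for 26 and 4 after E3, beside 21.9% and 33.3%. The direction of the group as a whole at 2 h followed the scaling. After E2, quantile normalization gave 5 higher and 14 lower and the array median as the scale gave 12 higher and 2 lower, and after E3 these gave 6 and 6, and 30 and 1. The array median moved the median of all genes tested by over 0.1. Without single arrays the E2 count was 6 (vehicle replicate 1), 6 (vehicle replicate 2), 5 (E2 2 h replicate 2) and 7 (E2 2 h replicate 3), and the E3 count was 8 without vehicle replicate 2 and 8 without E3 2 h replicate 3.

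Among the early rises, 4 kept their call under quantile normalization, the median scale and normexp background correction for both oestrogens, those of Ndufa11, Uqcrq, Uqcrfs1 and Cox5a. Ndufa11 had 0.92, 1.12 and 0.89 in E2 2 h uteri and 0.98, 1.04 and 1.35 in E3 2 h uteri, above every vehicle array, with differences of 0.64 and 0.79 (adjusted p = 0.0109 and 0.00305). Uqcrq rose by 0.55 and 0.67 (adjusted p = 0.0056 and 0.00154) and Cox5a by 0.60 and 0.71 (adjusted p = 0.0147 and 0.00532). Ndufab1 rose by 0.33 and 0.39 (adjusted p = 0.019 and 0.00821), and with quantile normalization its values of 0.23 and 0.23 did not pass. After E3, Sdhb also rose by 0.41 (adjusted p = 0.0191) and Ndufs1 by 0.40 (adjusted p = 0.0044), and the E2 values were 0.20 and 0.22 without passing.

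The falls at 2 h after both oestrogens were those of Cox7a1, given above, Ndufa6 and Atp5s. Ndufa6 had 3.47, 3.31 and 3.47 in E2 2 h uteri and 3.43, 3.44 and 3.41 in E3 2 h uteri, below every vehicle array. It fell by 0.36 and 0.35 (adjusted p = 0.0279 and 0.031), and with the median scale its values of -0.20 and -0.13 did not pass. Atp5s, which by its name is a factor B of ATP synthase and is not a subunit, had 0.60, 0.56 and 0.55 in E2 2 h uteri and 0.79, 0.67 and 0.75 in E3 2 h uteri, against 1.35, 1.32 and 1.05 in vehicle uteri. It fell by 0.67 and 0.50 (adjusted p = 0.00797 and 0.0333), and was the 1 member that fell at 24 h after E2, by 0.50 (adjusted p = 0.0307). Cox4nb rose at 2 h, by 0.56 and 0.60 (adjusted p = 0.0209 and 0.0134), and was also called higher at 24 h after E2, at 0.55. Its other probe went the other way at 24 h, as given below. Ndufaf1 rose at 24 h by 0.53 and 0.39 (adjusted p = 0.00215 and 0.0292), and Cox7a2l did not pass in any comparison with vehicle.

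E2 and E3 were compared at the same dose of 250 ng, once at each time, which makes 2 pairs of groups. At 2 h, 0 of 81 members and 0 of 20303 genes were called by limma, with 0 members and 737 genes at an unadjusted p under 0.05. The member median was -0.13 and single differences ran from -0.41 to 0.51. Of the members, 4 lay above 0 and 77 below, beside 10296 and 10007 of all genes tested, whose median was 0.0029. How this member median depends on the scaling is not given here. All 3 E2 arrays lay below all 3 E3 arrays for 18 members and above them for 0, beside 6.33% and 6.21% of all genes tested. For Ndufa11 the difference was -0.15 (95% interval -0.53 to 0.23, adjusted p = 1), and for Atp5g1 -0.06 (95% interval -0.33 to 0.20, adjusted p = 1). With 3 arrays per group, true differences within these intervals remain possible.

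At 24 h, 35 of 81 members were higher after E2 than after E3 and 0 were lower, beside 8.83% of all genes tested called higher and 6.81% called lower (15.6% in either direction). The member median was 0.37 and the median of all genes tested -0.02. By complex, 18 of 36, 3 of 4, 3 of 7, 2 of 15 and 9 of 15 genes were called in complexes I to V, with medians of 0.40, 0.45, 0.40, 0.19 and 0.39. The 15 of complex IV again include the muscle, lung or testis forms. The median SE there was 0.17, beside 0.12 in complexes I and V, so the counts of the complexes are not directly comparable. The difference was 1.13 for Atp5g1 (95% interval 0.87 to 1.39, adjusted p = 0.000186), 0.95 for Ndufa11 (0.57 to 1.32, adjusted p = 0.00408), 0.84 for Ndufs8 (0.57 to 1.11, adjusted p = 0.00117) and 0.74 for Sdhb (0.48 to 1.01, adjusted p = 0.00224). In each of these genes all 3 E2 24 h arrays lay above all 3 E3 24 h arrays, as they did in 45 of 81 members, with 2 members the other way, beside 14.7% and 13.9% of all genes tested. Without E2 24 h replicate 1 the count was 23 and without replicate 2 it was 20. On scan day 1 alone it was 17, with a member median of 0.31. With slide as a fixed term over the treated arrays it was 0, as it was over all genes tested, with 26 members at an unadjusted p under 0.05 and a member median of 0.55 (no slide held both groups).

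For other members the difference at 24 h did not pass, and the intervals give its possible size. The E2 minus E3 difference was -0.03 for Uqcrfs1 (95% interval -0.21 to 0.15), -0.08 for Cox4i1 (-0.44 to 0.28), 0.14 for Atp5g2 (-0.21 to 0.49), 0.16 for Cox8a (-0.15 to 0.46) and 0.21 for Cox5b (-0.17 to 0.58). For Cox6a2 it was -1.42 (-2.58 to -0.25), which did not pass (adjusted p = 0.096). In complex IV the 2 genes called were Cox5a, with 0.67, and Cox7a2, with 0.38 (adjusted p = 0.0206 and 0.0402).

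**Figure D5:**
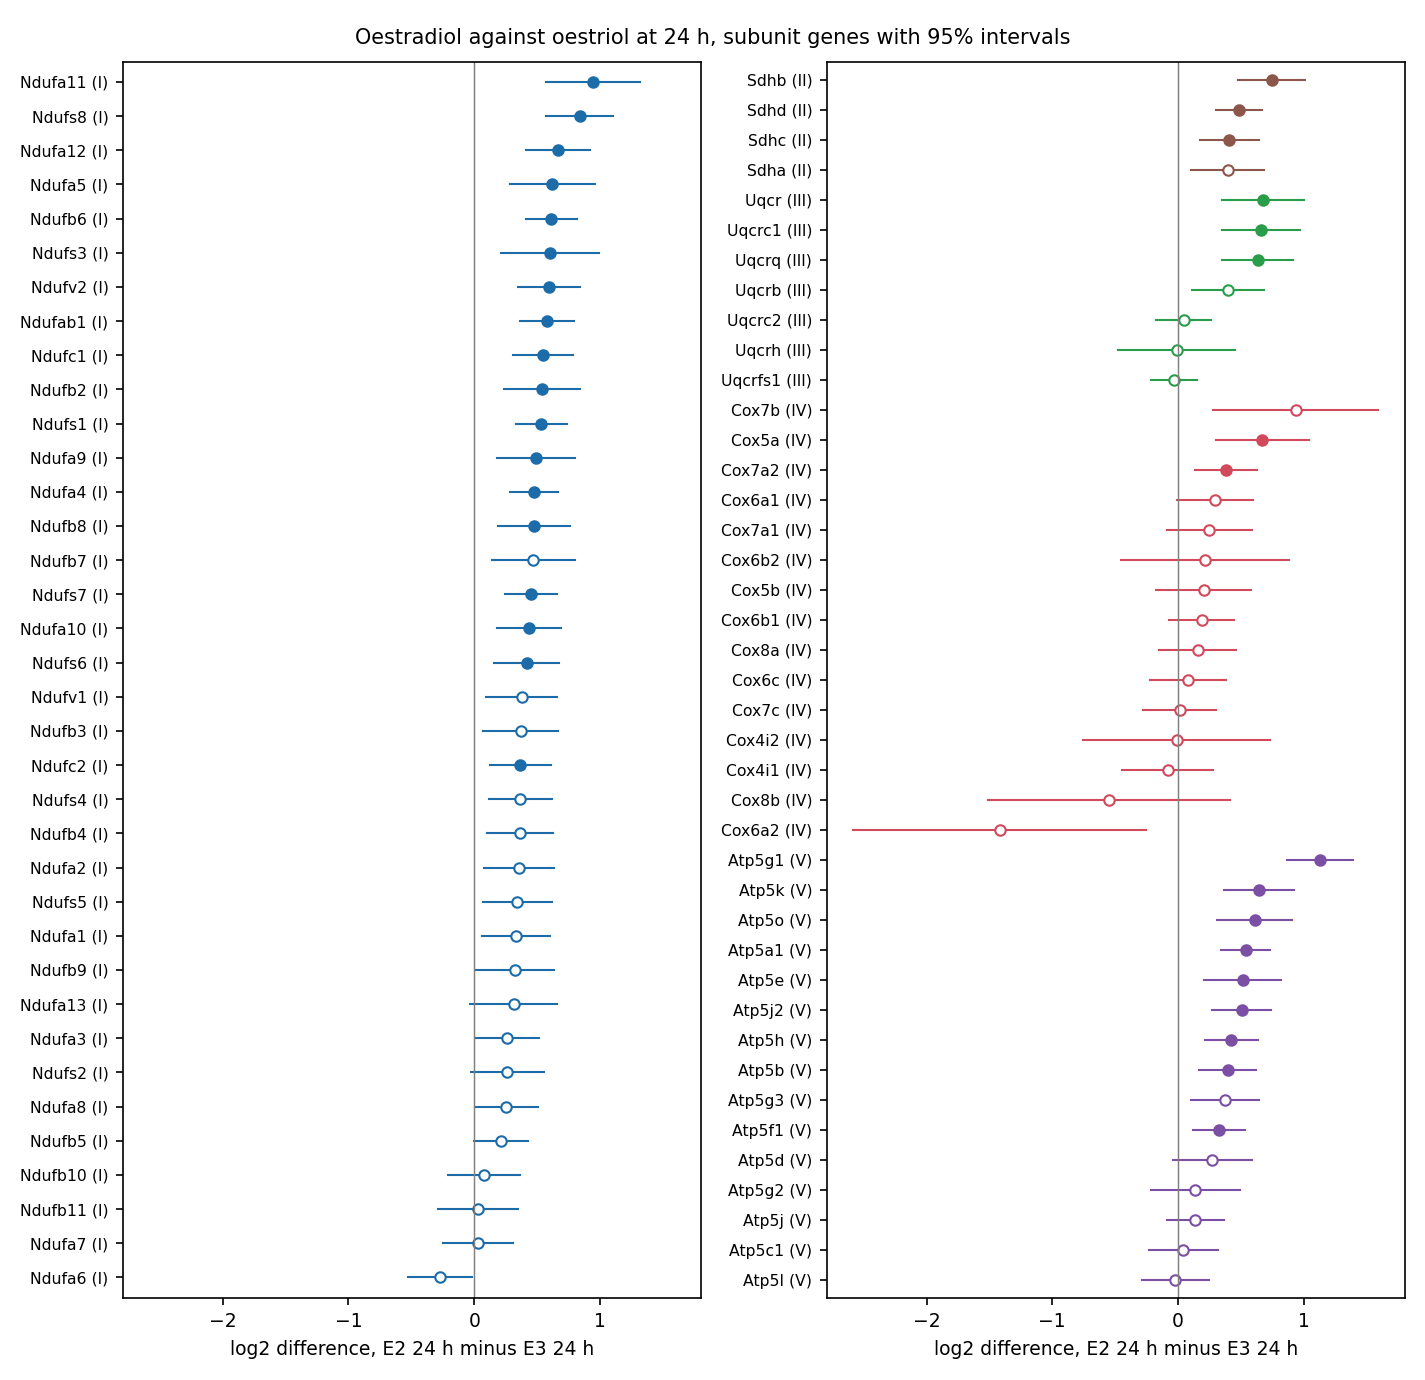
Points give the log2 difference between E2 24 h and E3 24 h uteri (3 arrays each) for every subunit gene tested, with 95% intervals from limma, complex I on the left and complexes II to V on the right. Filled points passed the adjusted p of 0.05. Atp5g1 lies highest at 1.13, and 11 of 15 complex IV genes have intervals that include 0. These 15 include the muscle, lung and testis forms that were tested.

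Between 2 h and 24 h, 72 of 81 members rose with E2 and 0 fell, beside 29.7% and 22.6% of all genes tested (52.3% in either direction). With E3, 51 rose and 1 fell, beside 29.1% and 20.3% (49.4%), and the 1 that fell was Cox4nb, by 0.58 (adjusted p = 0.0142). The member medians were 0.91 for E2 and 0.43 for E3, and those of all genes tested were 0.10 and 0.17. All 24 h arrays lay above all 2 h arrays for 73 members with E2 and 59 with E3, and below them for 1 each, beside 34.7% and 27.3% of all genes tested with E2 and 31.9% and 22% with E3. These comparisons do not use the vehicle arrays. On the 1 slide that held arrays of both E2 times, 79 of 81 members were higher on the 24 h array than the mean of the 2 arrays of 2 h, with a median of 1.01, beside 0.15 over all genes tested. Besides Cox7a1, the largest called differences with E2 were those of Cox7b (1.43) and Atp5g1 (1.41), and with E3 those of Atp5g2 (0.94) and Ndufa4 (0.81). With slide as a fixed term over the treated arrays, the E2 count was 69 and the E3 count 0, with 5 members at an unadjusted p under 0.05 for E3. No slide held both E3 times, so this fit could hardly separate the E3 change from slides. The change of the E2 minus E3 difference from 2 h to 24 h passed for 20 members, all of them higher, beside 3.63% and 2.36% of all genes tested (5.99%). By complex these were 10, 2, 3, 0 and 5 genes of complexes I to V. This count was 5 without E3 2 h replicate 3, 31 without E2 24 h replicate 3, 10 and 7 without E2 24 h replicates 1 and 2, and 8, 13 and 9 without E2 2 h replicates 1, 2 and 3. On scan day 1 alone it was 2, and with the replicate number as a block 13.

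For 6 genes, probes other than the one used gave other values. A Cox5a probe at chr9:57550303-57550362 of mm7 gave 1.41 and 1.33 at 2 h and -0.94 and -0.82 at 24 h for E2 and E3, unlike the probe used, which spans chr9:57559452-57560000. A Uqcrq probe at chr11:53386707-53386766 gave 1.95 and 2.00 at 2 h and -0.18 and -0.63 at 24 h, while the probe used lies at chr11:53385726-53385785. The values of Cox5a and Uqcrq above hold for the probes used. The other genes were Ndufb8, with -0.22 and 0.04 at 24 h from its other probe beside 1.14 and 0.67, Cox4nb, with -0.50 and -0.86 beside 0.55 and 0.03, Atp5f1 of the ATP synthase stalk, with 0.37 and 0.12 from 1 of its other probes beside 0.90 and 0.57, and Ndufab1, with 2.09 and 0.99 from another beside 0.90 and 0.32. With the mean of a gene's probes, Cox5a had -0.0086 after E3 at 24 h and both genes fell between 2 h and 24 h, and 69 members were called after E2 at 24 h, all higher.

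Other genes of the pathway were taken from lists that leave the members out. Of all genes tested, 20.9% rose at 24 h after E2 and 9.6% after E3, and 22.4% and 10.7% fell. All 17 genes of the tricarboxylic acid cycle list rose at 24 h after E2 and 8 rose after E3. Cs, the citrate synthase, rose by 1.18 and 0.74, and Pdha1, of pyruvate dehydrogenase, by 1.03 and 0.82. Fh1, the fumarase, rose by 1.08 and 0.54. Idh3a, of isocitrate dehydrogenase, rose by 1.18 after E2 and 1.00 after E3 at 2 h and by 0.68 after E2 at 24 h, and had -0.07 after E3 at 24 h. Of 28 import and carrier genes, 26 rose after E2 and 12 after E3, and Slc25a5, an ADP and ATP carrier, rose by 1.81 and 1.00. Vdac1, a channel of the outer membrane, rose by 0.91 and 0.67, and Dnajc19, of the import machinery, by 0.95 and 0.39. Tomm6, of the outer membrane translocase, rose by 1.07 after E2 and had 0.32 after E3 (adjusted p = 0.0572). Of 31 assembly factors of complexes II to V, 22 rose after E2 and 12 after E3, with values of 1.19 and 0.88 for Bcs1l, which inserts the Rieske protein, and of 15 complex I assembly factors 11 and 3 rose. Coa3 and Pet100, for complex IV, rose by 1.00 and 1.08 after E2 and by 0.53 and 0.76 after E3, while Ttc19, for complex III, rose by 0.63 after E2 and had 0.14 after E3. In the list for complex I, which need not be the only complex these factors serve, Tmem70 rose by 0.98 and 0.50 and Nubpl by 0.69 and 0.52. Foxred1 rose by 0.56 after E2 and had 0.00 after E3. Ndufaf4 had -0.13 and -0.32 at 24 h and rose by 1.35 after E2 and 1.39 after E3 at 2 h. Among 18 other carriers and subunits outside the name rule, 14 and 9 rose. Cyc1, the cytochrome c1 of complex III, rose by 1.27 and 0.48. Coq9, needed to make coenzyme Q, rose by 0.60 and 0.46 at 24 h and fell by 0.72 and 0.57 at 2 h. Higd1a, a small inner membrane protein, rose by 1.58 and 1.65 at 2 h, and at 24 h it rose by 1.28 after E2 and had 0.24 after E3. Cycs, cytochrome c, rose by 1.43 and 1.59 at 2 h, and at 24 h it had 1.34 after E2 (adjusted p = 7.82e-05) and 0.19 after E3 (adjusted p = 0.417). No gene fell at 24 h in any of these 5 lists.

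Of 16 fatty acid oxidation genes, 9 rose after E2 at 24 h and 6 after E3, and 0 fell. At 2 h, 7 of the 16 fell after E2 and 4 after E3 and 0 rose, where 22.2% and 23% of all genes tested fell and 16.3% and 16.9% rose, so that the 4 falls after E3 are close to the share of all genes. Eci1, an enoyl-CoA isomerase, rose by 0.67 and 0.47 at 24 h. Cpt1a, the carnitine palmitoyltransferase of the outer membrane, rose by 0.77 and 0.53, and Hadha, of the trifunctional protein, by 0.72 and 0.44. Cpt2, the carnitine palmitoyltransferase of the inner membrane, fell by 0.81 and 0.58 at 2 h, and rose by 0.75 at 24 h after E2. Of 8 uncoupling and antioxidant genes, 7 rose after E2 and 3 after E3 at 24 h. Gpx4, a glutathione peroxidase, rose by 0.53 and 0.39. Prdx3, a mitochondrial peroxiredoxin, Txn2, a mitochondrial thioredoxin, and Ucp2, an uncoupling protein, rose by 0.85, 0.64 and 1.05 after E2, and had 0.44, 0.17 and 0.62 after E3, which did not pass. Of 20 nuclear regulators of mitochondrial biogenesis, 2 rose and 7 fell at 24 h after E2, 2 rose and 4 fell after E3, and at 2 h 3 rose and 4 fell after E2 and 5 rose and 5 fell after E3. In a list of 20 genes these counts are not read as differing from the shares of all genes tested given above. Ppargc1a, a coactivator of these regulators, fell by 2.29 after E2 and 2.33 after E3 at 2 h and by 1.29 after E2 at 24 h (adjusted p = 2.32e-05, 1.96e-05 and 0.00146). Pprc1, a related coactivator, rose by 1.96 and 2.01 at 2 h (adjusted p = 8.11e-05 and 6.28e-05). Polg2, the accessory subunit of the mitochondrial DNA polymerase, fell by 1.54 and 1.38 at 2 h. Mterf2, a mitochondrial transcription termination factor, fell by 2.74 and 1.91 at 2 h and by 0.77 after E2 at 24 h. The genes encoded in mitochondria were not analysed here.

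Markers of uterine cell types were followed over the same comparisons, and all 8 smooth muscle, 8 epithelium and 8 stroma markers were well above background on the vehicle arrays. Of all genes tested, 20.9% rose and 22.4% fell at 24 h after E2, and 9.6% rose and 10.7% fell after E3. Some counts below are near these shares, such as the 1 endothelium marker that fell after E3, and are not read as differing from them. The summed level of 8 smooth muscle markers, as a log2 value, was 9.22 to 9.92 in E2 24 h uteri and 9.59 to 9.88 in E3 24 h uteri, against 8.66 to 9.24 in vehicle uteri, and 4 and 6 of the 8 rose. That of 8 stroma markers was 9.51 to 9.68 and 9.56 to 9.81, against 8.72 to 8.89 in vehicle uteri, and 5 rose and 2 fell after E2 and 5 rose after E3. That of 8 epithelium markers was 7.69 to 8.16 and 7.60 to 8.31, against 7.02 to 7.46 in vehicle uteri, and 4 and 2 rose. That of 8 leukocyte markers was 6.40 to 6.57 and 7.14 to 8.48, against 6.79 to 7.37 in vehicle uteri, and 1 fell after E2 and 3 rose after E3. That of 7 endothelium markers was 3.96 to 4.12 and 4.38 to 4.84, against 4.32 to 4.50 in vehicle uteri, and 4 and 1 fell. Their part in the changes of the subunit genes was not tested. For Cox7a1, Cox6a2 and Cox8b the markers of skeletal or cardiac muscle matter too. The summed level of those 13 was 6.13 to 6.87 in E2 24 h, 5.63 to 6.36 in E3 24 h, 4.50 to 5.16 in E2 2 h and 4.98 to 5.60 in E3 2 h uteri, against 4.79 to 5.58 in vehicle uteri. Acta1, Actc1, Tnnt3, Tnni2, Tnnc2 and Tnnt2, actins and troponins of striated muscle, were well above background on 3 of 3 arrays in every group. Myh2, a myosin of fast muscle, was so on 0 of 3 arrays in E2 24 h, E3 24 h and vehicle uteri. Of the 10 tested, 4 rose and 1 fell at 24 h after E2, and 0 were called after E3. Those that rose were Tnni2 by 2.36, Tnnc2 by 1.67, Acta1 by 1.59 and Actc1 by 1.12, and Mb, myoglobin, fell by 1.87. At 2 h only Myh7, a myosin of slow and cardiac muscle, was called among the 10, and it rose by 4.95 after E2 and 5.56 after E3. The part of these markers in the values of the 3 genes was not tested. Of 3 erythrocyte markers, 2 rose after each oestrogen. Adipocyte markers varied within groups, from 1.84 to 6.11 in E2 24 h uteri, 4.14 to 5.75 in E3 24 h uteri and 2.49 to 6.59 in vehicle uteri.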

How the data were processed

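Total RNA from uteri (500 ng) was measured on 15 one-colour Agilent arrays. The deposited values are spot intensity readings that the authors extracted with Agilent Feature Extraction 9.5.3.1, with background subtraction and detrending per the file headers, and probe positions are on mm7. The authors' deposited value table held the same processed signals. Of 41174 probes that are not controls, 53 with a missing value were left out. The log2 values, computed here from the deposited intensity, were taken relative to the 75th percentile of each array. A gene was read from its brightest probe (mean over the 15 arrays) and tested if well above background on all 3 arrays of any group. Symbols were updated through RefSeq.

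All 5 groups were fitted together with limma 3.58.1 in R 4.3.3, without the replicate number, and p-values were adjusted with the Benjamini-Hochberg method over 20303 genes. Genes called had an adjusted p under 0.05. The fit was tested on simulated data. For E2 24 h against vehicle, it found 26% of 50 genes changed 1.5-fold, 50% of 50 changed 2-fold and 88% of 50 changed 4-fold, and made 8 false calls. Few of the 20303 genes were changed in the simulation, and they were drawn from all genes tested. In the data 43.4% were called in this comparison, so these shares do not give the recovery of members here. The deviations of same-numbered arrays of different groups had r from -0.22 to 0.21 over 30 pairs. Differently numbered arrays had -0.26 to 0.25 over 60 pairs. The labels give no pairing and none was used in the main fit, but this check cannot exclude a weak pairing. Alternatives were another scaling, background correction, filter, probe rule, threshold and sample choice, blocks for slide, scan day and replicate, scan day 1 alone, which was chosen after seeing the data, and leaving out each of the 15 arrays.

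Named members were the 3 largest called rises and falls without overlap per comparison, the largest per complex, and a list of defining subunits. The 4 genes of each other list with the smallest adjusted p were named. Atp5k, Atp5h, Sdhd, Uqcrb, Ndufs3, Ndufb11, Ndufb8, Ndufaf1, Cox7a2l and Cox8c were added after their values were seen, and Atp5l, Ndufa8 and Uqcr for their promoters. The members and lists were chosen with earlier results of these data known.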

Additional observations from a re-analysis of the deposited data

Results flagged for a closer look

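For 20 members the E2 minus E3 difference at 24 h was larger than that at 2 h by a test of this difference of differences (limma, adjusted over all genes tested). Of all genes tested, 3.63% were called higher and 2.36% lower in this test (5.99% in either direction). In complex I the differences, on the log2 scale, were 1.10 for Ndufa11, 1.01 for Ndufs8, 0.79 for Ndufa12, 0.73 for Ndufc1, 0.71 for Ndufs1, 0.69 for Ndufv2, 0.63 for Ndufab1, 0.63 for Ndufb6, 0.59 for Ndufa4 and 0.58 for Ndufs7. In complex II they were 0.95 for Sdhb and 0.60 for Sdhd, and in complex III 0.85 for Uqcr, 0.76 for Uqcrc1 and 0.75 for Uqcrq. In complex V they were 1.19 for Atp5g1, 0.76 for Atp5o, 0.68 for Atp5k, 0.64 for Atp5a1 and 0.61 for Atp5j2. The count of 20 was 2 with scan day as a block and 0 with slide as a fixed term, where 27 members had an unadjusted p under 0.05 and the member median was 0.85. Counts of all genes under these settings are not given here, so the lower counts are not read as particular to the members.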

How the results depend on the processing

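The counts of members called at 24 h after E2 (74) and between 2 h and 24 h with E2 (72) stayed within 1.5 times under all alternatives run, from 62 (quantile normalization) to 74 for the first. Slide as a fixed term was run on the treated arrays only, so not for any comparison with vehicle. The vehicle arrays shared a slide with no other group. For E2 2 h against vehicle the count of 11 was 19 with quantile normalization and 4 at an adjusted p under 0.01. For E3 2 h the count of 15 was 31 with the array median as the scale and 7 at an adjusted p under 0.01. For E3 24 h the count of 61 was 25 with quantile normalization, 30 at an adjusted p under 0.01, 0 with only the groups compared and 40 on scan day 1 alone. For E2 24 h against E3 24 h the count of 35 was 18 at an adjusted p under 0.01, 1 with only the groups compared, 0 with slide as a fixed block and 17 on scan day 1 alone. For E3 24 h against E3 2 h the count of 52 was 33, 32 and 0 under the threshold, groups compared and slide settings. No slide held both groups of that comparison or of E2 24 h against E3 24 h. The difference of differences (20) was 11 with quantile normalization, 8 with no filter on dim probes, 2 at an adjusted p under 0.01, 13 with only the groups compared, 0 with slide as a fixed block, 2 with scan day as a block and 2 on scan day 1 alone. The cause was not tested, except that fewer arrays enter some of these fits. Counts of all genes called under the settings of this section are mostly not given. A changed member count can thus reflect how many genes a fit calls at all. Leaving out 1 array gave 71 to 74 for E2 24 h, 33 to 62 for E3 24 h, 5 to 9 for E2 2 h, 8 to 16 for E3 2 h, 20 to 41 for E2 24 h against E3 24 h, 0 to 0 for E2 2 h against E3 2 h, 70 to 72 for E2 24 h against E2 2 h, 38 to 50 for E3 24 h against E3 2 h and 5 to 31 for the difference of differences. The replicate number, which showed no sign of pairing, was also used as a block. The counts were then 74 for E2 24 h, 58 for E3 24 h, 9 for E2 2 h, 14 for E3 2 h, 31 for E2 24 h against E3 24 h, 0 for E2 2 h against E3 2 h, 72 for E2 24 h against E2 2 h, 48 for E3 24 h against E3 2 h and 13 for the difference of differences. The array median as the scale gave a median over all genes tested of 0.20 for E2 24 h, beside -0.02, and moved it by over 0.1 for E3 24 h and both 2 h comparisons with vehicle.

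Values that changed sign were Atp5a1 at E3 24 h against vehicle (-0.011 with quantile normalization), Cox5a in that comparison (-0.0086 with the mean of its probes), Atp5b between E3 2 h and E3 24 h (-0.17 with quantile normalization), and, with the mean of their probes, Cox5a and Uqcrq between 2 h and 24 h, at -0.74 and -0.57 with E2 and -1.03 and -1.20 with E3. With 3 arrays per group and signals relative to the rest of the array, small differences and changes in total RNA were not measurable.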
